A study of Mus musculus with 3 samples.

Results

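The genes described here carry TGF-beta and activin signalling, and they were taken as the 10 genes Tgfb1, Tgfb2, Tgfb3, Inhba, Tgfbr1, Tgfbr2, Smad3, Smad7, Id1 and Tgfbi. Every probe set whose platform annotation gives 1 of these symbols and no other was used, which is 25 of 45037 probe sets after leaving out controls. All 10 genes, of 18193 that the array names in this way, had at least 1 such probe set, and all 10 were among the 11089 genes tested. The study asked what the loss of RASSF9, a protein of the Ras-association domain family, does to mouse epidermis, and it hybridized RNA of primary keratinocytes to the Affymetrix Mouse Genome 430 2.0 Array. There was 1 array of wild-type (WT) cells and there were 2 arrays of RASSF9-/- cells, called array 1 and array 2 here, all from neonatal mice of the ICR strain. The RASSF9-/- mice are homozygous for the insertion of an Epstein-Barr virus LMP1 transgene that deleted part of a Rassf9 intron, so they carry the transgene in both copies and the WT mouse does not. They come from 1 insertion line. Each sample was 1 plate of cells grown to confluence without serum at low calcium. Labels and methods disagree on culture time: the labels give 24 h for WT and 48 h for both RASSF9-/- samples, whereas the methods give 48 h for all. If the labels are right, genotype and culture time cannot be told apart.

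TGF-beta ligands are made in a latent form, are released outside the cell, and bind a type II receptor that then switches on a type I receptor. Activins, which are dimers of inhibin beta chains, use receptors of the same family. Both kinds of ligand pass their signal through Smad2 and Smad3, which join Smad4 and enter the nucleus, whereas the related BMP ligands use Smad1, Smad5 and Smad9. In epidermis, TGF-beta holds back the division of keratinocytes, and activin is known for its part in wound repair.

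Each probe set has a MAS5 signal, which is an intensity on a linear scale that the authors adjusted to the same trimmed mean of 500 on every array. Signals of different probe sets cannot be ranked against each other, because probes differ in how well they bind. The highest signal of 27 control probe sets for bacterial genes was 78.4, and anything under it was treated as background. Rassf9 itself read 478 in WT, 59.6 on array 1 and 120 on array 2 on its brighter probe set, which is the direction of the labels. All 8 keratinocyte markers were above background on each array. All 8 melanocyte markers were as well, with a summed signal of 29748 in WT, 25346 on array 1 and 35634 on array 2. The 8 fibroblast markers summed to 1694 in WT, 1270 on array 1 and 943 on array 2, and Dpt was under background on every array. The signal ratio of 3' to 5' control probe sets, a measure of RNA integrity, was between 1.37 and 1.43 for beta-actin and between 0.83 and 0.94 for Gapdh. File names in the labels carry a date, which WT and RASSF9-/- array 1 share and RASSF9-/- array 2 does not, so the value of array 1 is also the value within 1 date.

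Sequences upstream of the start site are shown for 3 genes on which the results turn: Tgfb2 and Inhba, with higher signals on both RASSF9-/- arrays, and Tgfbi, with lower ones. They are the 250 bases before a RefSeq start on build GRCm38.p6, read in the direction of the gene. RefSeq entries were at hand for 7 of the 10 genes, with 8 starts between them. Capitals mark matches on either strand to 3 short motifs. The first is CAGAC, the element that Smad3 and Smad4 proteins recognize, which appears as GTCTG where it lies on the opposite strand. Another is the E-box CACGTG, a site for helix-loop-helix proteins. The last is the TATA box, searched as TATAAA, where transcription can be positioned. The AP-1 element, searched as TGANTCA, was not found in them.

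Tgfb2, chr1:186705990-186706239, minus strand: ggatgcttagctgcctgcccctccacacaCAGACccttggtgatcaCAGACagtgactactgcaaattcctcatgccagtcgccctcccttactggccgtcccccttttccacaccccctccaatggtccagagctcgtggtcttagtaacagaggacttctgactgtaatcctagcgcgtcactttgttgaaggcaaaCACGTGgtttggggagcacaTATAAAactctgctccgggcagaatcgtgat
Inhba, chr13:16011601-16011850, plus strand: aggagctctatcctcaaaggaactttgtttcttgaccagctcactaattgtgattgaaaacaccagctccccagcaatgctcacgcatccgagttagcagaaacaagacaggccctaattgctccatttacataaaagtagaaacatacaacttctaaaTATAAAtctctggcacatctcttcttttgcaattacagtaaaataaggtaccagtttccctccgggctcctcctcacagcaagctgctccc
Tgfbi, chr13:56609336-56609585, plus strand: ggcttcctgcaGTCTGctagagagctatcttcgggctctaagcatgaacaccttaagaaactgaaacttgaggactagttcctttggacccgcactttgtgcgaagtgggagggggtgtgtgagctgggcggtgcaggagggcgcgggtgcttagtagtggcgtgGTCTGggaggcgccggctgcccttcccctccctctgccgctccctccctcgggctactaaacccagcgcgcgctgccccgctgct

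The CAGAC element occurs 2 times before Tgfb2, 2 times before Tgfbi and 0 times before Inhba. It was found before 4 of the 8 member starts, and 42.2% of 32841 promoters of this length hold it. The E-box of Tgfb2 begins 51 bases before the start and its TATA box 31 bases before it. Over all promoters 6.02% hold the E-box, 12.4% the TATA box and 6.75% the AP-1 element, which was before 0 of the 8 member starts. A match describes the letters in this window only.

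The ligand genes parted in direction. Tgfb2 and Inhba had higher signals in RASSF9-/- cells than in WT on both arrays, and Tgfb1 and Tgfb3 had lower ones. Among genes that respond to the pathway, Id1 and Tgfbi were lower on both. The log2 fold changes of both receptor genes and both Smad genes lay between 0.06 and 0.43. None of the 10 genes was called by limma at an adjusted p under 0.05, a rule that called 0.0812% of all genes tested. These are thus differences of 2 arrays from 1 and not changes past a test. The p-values rest on the spread between the 2 RASSF9-/- arrays, pooled by limma with that of other genes. They hold no spread between WT cultures. At an unadjusted p under 0.05, Tgfb2, Inhba and Id1 passed, against 5.55% of all genes. The 10 genes, and the lists of other pathway genes used below, were chosen with earlier results of these data known. The shares of all genes given throughout are thus for reference and test no enrichment. By size, 1 of the 10 was higher on both arrays by 2-fold or more (2.89% of all genes were) and 2 were at least 2-fold lower on both (2.24%). By direction alone, 3 were higher on both arrays (33.6% of all genes) and 4 lower on both (32.7%), which is near the share of all genes. Of the 3, Tgfbr2 was level with WT on array 1, at a log2 difference of 0.02. Each RASSF9-/- array is compared with the same WT array, so the 2 differences of a gene are not independent. RNA was taken from whole cultures, in which fewer cells of a type and less RNA per cell cannot be told apart.

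**Figure D1:**
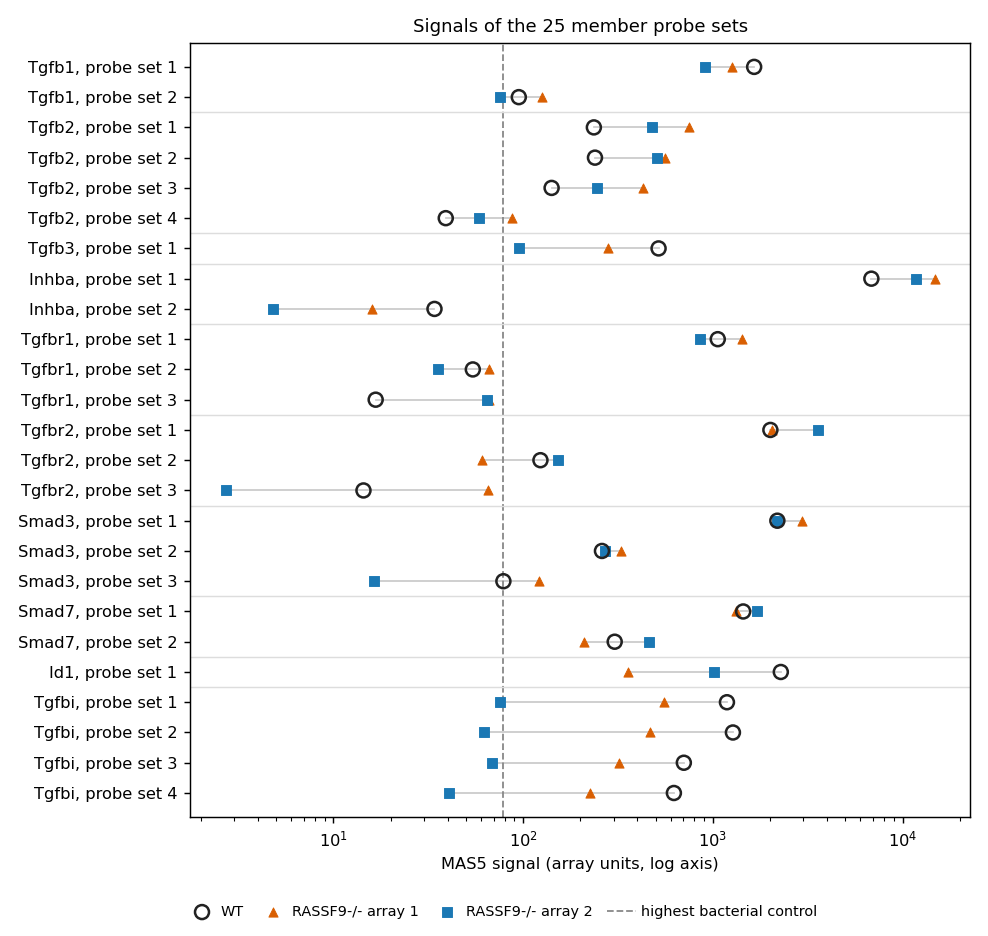
MAS5 signal (array units, log axis) of the 25 probe sets, numbered within a gene from the brightest, with an open circle for the WT array, a triangle for RASSF9-/- array 1, a square for RASSF9-/- array 2 and broken lines marking 78.4, the background limit. The 3 brighter Tgfb2 probe sets have the WT circle on the left, and all 4 Tgfbi probe sets and that of Id1 have it on the right.

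Tgfb2 encodes a TGF-beta ligand. Its brightest probe set had a signal of 236 in WT, 747 on array 1 and 480 on array 2. WT was the lowest of the arrays, and array 1 was 3.17-fold and array 2 was 2.03-fold above it. The mean log2 fold change of both arrays was 1.34 (standard error, SE, 0.51, limma adjusted p = 0.829), with a 95% interval from 0.12 to 2.57. The second probe set gave 239, 559 and 509 in the same order of arrays, and the third gave 141, 428 and 244. The fourth was dim, with 39.1 for WT and 58.5 for array 2 in the background and 87.1 for array 1. It gives no direction on array 2. The 3 probe sets above background on every array were higher on both RASSF9-/- arrays, with log2 differences from 1.22 to 1.66 on array 1 and from 0.79 to 1.09 on array 2. These probe sets read the same RNA samples and are not replicates of the genotype.

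Inhba encodes the beta A chain, which forms activin A as a dimer. Its signal was 6852 in WT, 14829 on array 1 and 11742 on array 2. Both RASSF9-/- arrays were above WT, 2.16-fold and 1.71-fold. This is a log2 fold change of 0.95 (SE 0.33, limma adjusted p = 0.770), with a 95% interval from 0.15 to 1.74. A second probe set was under background on every array, at 34.1, 16 and 4.8, and gives no direction. Taking the mean of both probe sets turned the fold change to -0.51, which rests on the background values of the second.

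Tgfb3 encodes another TGF-beta ligand and had 1 probe set. Signals were 518 in WT, 281 on array 1 and 95.5 on array 2. WT was highest, by 1.84-fold over array 1 and by 5.42-fold over array 2, so the size of the difference depended on the array. For the log2 fold change the fit gave -1.66 (SE 0.75, limma adjusted p = 0.942), with a 95% interval from -3.47 to 0.14.

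Tgfb1, the ligand for which the family is named, differed less. Its brighter probe set had 1651 in WT, 1265 on array 1 and 904 on array 2, again with WT highest. A log2 fold change of -0.63 was fitted (SE 0.41, limma adjusted p = 1.00). The dimmer probe set was close to background, at 94.9 in WT, 125 on array 1 and 75.7, under the limit, on array 2.

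**Figure D2:**
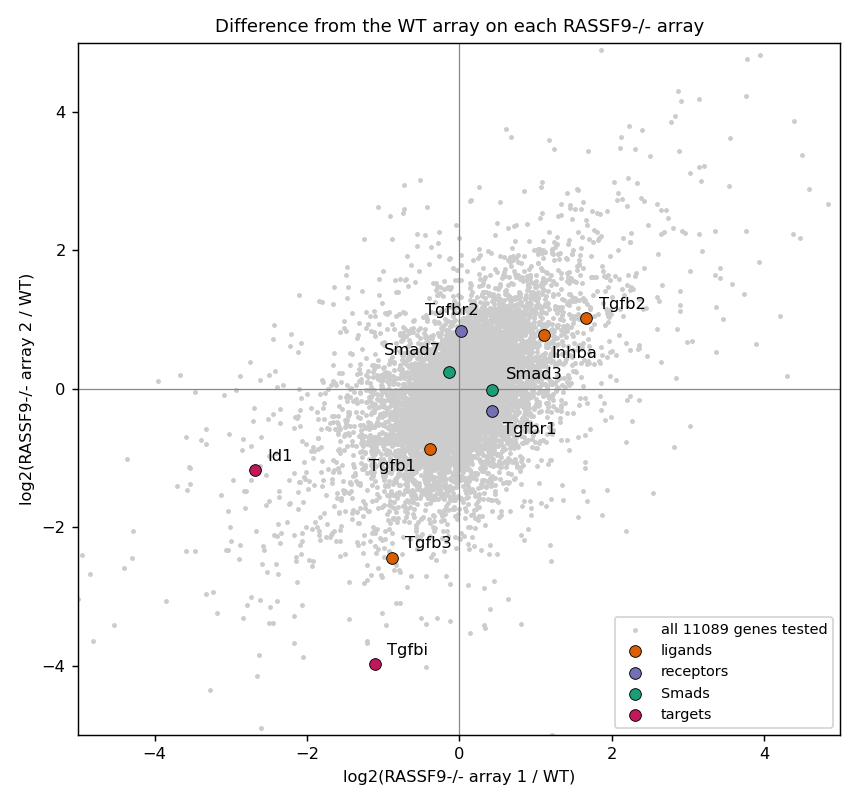
The log2 ratio to the WT array on RASSF9-/- array 1 (horizontal axis) and array 2 (vertical axis), with grey points for the 11089 genes tested and coloured points for the 10 genes by role; 18 genes lie outside the axes. Tgfb2 and Inhba are at upper right, Id1 is far to the left, and Tgfb3 and Tgfbi are far down. Tgfbr1 and the Smads are near the origin, and Tgfbr2 lies above it, at 0.02 on array 1 and 0.84 on array 2.

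Both receptor genes had clear signals on every array and no common direction. Tgfbr1 encodes the type I receptor, the kinase that acts on Smad2 and Smad3. Its signal was 1062 in WT, 1430 on array 1 and 851 on array 2, so WT lay between the RASSF9-/- arrays. The log2 fold change was 0.06 (SE 0.46, 95% interval from -1.06 to 1.17). The other 2 Tgfbr1 probe sets were under background on all arrays.

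Tgfbr2 encodes the type II receptor, which binds the ligand first. Signals were 2011 in WT, 2045 on array 1 and 3593 on array 2. Array 1 was level with WT, and array 2 was 1.79-fold above it. A log2 fold change of 0.43 was fitted (SE 0.44, 95% interval from -0.63 to 1.496). A second probe set had 123, 60.7 and 154, with array 1 in the background, and the remaining probe set was in the background throughout.

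Smad3, which carries the signal of TGF-beta and activin to the nucleus, had 2189 in WT, 2940 on array 1 and 2171 on array 2. Only array 1 stood away from WT, at a log2 difference of 0.43 against -0.01 for array 2. A second probe set gave 260, 328 and 271. The log2 fold change of the brightest was 0.21 (SE 0.37, 95% interval from -0.69 to 1.11).

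Smad7 is an inhibitory Smad that the pathway itself induces and that blocks the type I receptor. Its signals were 1446 in WT, 1319 on array 1 and 1717 on array 2, and a second probe set gave 304, 209 and 462. On both probe sets WT lay between the RASSF9-/- arrays. The log2 fold change was 0.06 (SE 0.39), with a 95% interval from -0.87 to 0.99. The interval holds the differences that the 3 arrays do not exclude, and it is not adjusted for the number of genes tested. It is not a limit of detection. Adjusted p was 1.00 from limma for Tgfbr1, Tgfbr2, Smad3 and Smad7 alike.

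Both response genes were lower on both arrays. Id1 encodes an inhibitor of basic helix-loop-helix transcription factors and is a classic target of BMP signalling, which TGF-beta can also alter. Its only probe set had 2283 in WT, 355 on array 1 and 1016 on array 2. WT was highest, by 6.42-fold over array 1 and 2.25-fold over array 2. Its log2 fold change was -1.93 (SE 0.65, limma adjusted p = 0.759), with a 95% interval from -3.50 to -0.35. Among the 3628 genes lower on both RASSF9-/- arrays, 178 had a smaller change, taken over the 2 arrays, that was greater than that of Id1.

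Tgfbi encodes a secreted matrix protein that was found as a transcript induced by TGF-beta. Its brightest probe set had 1187 in WT, 550 on array 1 and 75.5 on array 2. Array 1 was 2.16-fold under WT and array 2 was in the background. With array 2 raised to the background limit, the geometric mean of the RASSF9-/- arrays was at least 5.72-fold lower than WT. The log2 fold change of the signals as deposited was -2.54 (SE 1.09, limma adjusted p = 0.911), and its 95% interval, from -5.19 to 0.10, is wide because the RASSF9-/- arrays are far apart.

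All 4 Tgfbi probe sets gave the same order of arrays. The second gave 1276 in WT, 467 on array 1 and 62.0 on array 2, the third had 703, 319 and 68.8, and the fourth had 623, 224 and 40.6. With background values raised to the limit, the bound ran from at least 4.45-fold to at least 6.67-fold lower over the 4. The first 3 have a type of name (s_at or x_at) given to probe sets that may also bind related transcripts, and the fourth does not.

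The fibroblast markers had a summed signal that was also lower on array 2 (943) than on array 1 (1270) and WT (1694). Of these 8 markers, 4 were lower on both RASSF9-/- arrays (32.7% of all genes were) and 1 was higher (33.6%). The higher one, Lum, had 21.1 in WT and 48 on array 2, both in the background, and 106 on array 1. It gives no direction on array 2. Pdgfra, among the lower ones, had 106, 98.3 and 67, in the background on array 2. Their part in the lower Tgfbi and Tgfb3 signals was not tested.

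By likeness of pattern, the 5 tested genes nearest to Id1 in their pair of log2 differences from WT were Anxa9, Serpinb6c, Hoxc13, Timp3 and Atp6v1c2. Anxa9 had 1386 in WT, 212 on array 1 and 608 on array 2, and Timp3 had 20049, 3442 and 8441. Hoxc13, with 220, 33.2 and 88.5, was in the background on array 1, so its distance is not exact. Over 3 arrays such likeness is weak, and 16 genes lay within a distance of 0.5 on the log2 scale.

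Other genes of the pathway were read from 6 lists by role, 97 genes in all, of which 90 had a probe set with 1 symbol and 77 were tested. None was called by limma, and 9 had an unadjusted p under 0.05, beside 5.55% of all genes tested. As the lists were chosen with earlier results known, that share tests no enrichment. On both RASSF9-/- arrays, 17 were higher (33.6% of all genes were) and 34 lower (32.7%), and the other 26 lay on either side of WT. The median log2 fold change was -0.18, with -0.10 on array 1 and -0.37 on array 2, beside -0.01, 0.05 and -0.04 over all genes tested. At least 2-fold on both arrays, 3 were higher (2.89% of all genes were) and 5 lower (2.24%).

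**Figure D3:**
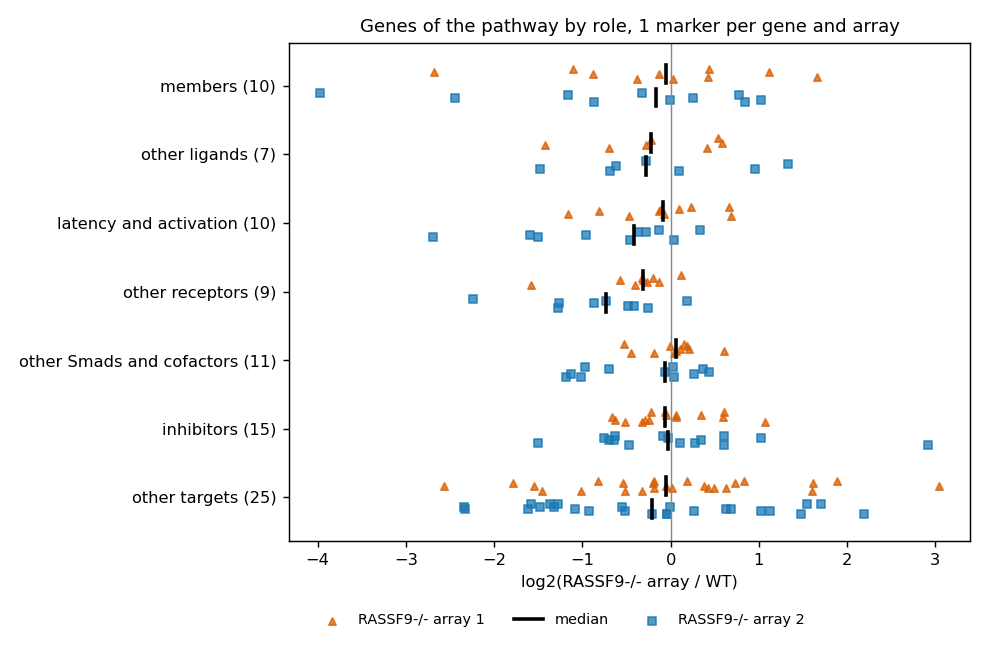
Log2 ratio to the WT array of each pathway gene tested, by role, with a triangle for RASSF9-/- array 1, a square for RASSF9-/- array 2, a black bar at the median and the number of genes in brackets. The medians of the other receptors are at -0.32 on array 1 and -0.74 on array 2, and in most rows genes lie on both sides of 0.

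Among the inhibitors, Fst was higher in RASSF9-/- cells, as Inhba was. Fst encodes follistatin, which binds activin outside the cell and neutralizes it. It gave a signal of 2193 in WT, 4592 on array 1 and 16573 on array 2. Both RASSF9-/- arrays were above WT, array 2 by 7.56-fold, and both Fst probe sets agreed in this. Its log2 fold change was 1.99 (SE 0.71, limma adjusted p = 0.782). The related Fstl3 went the other way, with 447, 288 and 157.

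Of 15 inhibitors tested, 3 were higher on both arrays, 5 were lower and 7 lay on either side of WT. The shares of all genes tested were 33.6% higher and 32.7% lower. Pmepa1, which keeps Smad2 and Smad3 from the receptor and is itself induced by TGF-beta, had 8661 in WT, 6052 on array 1 and 6248 on array 2, lower on both for all 3 of its probe sets. Bambi, a decoy receptor, was dim, with 120 for WT and background on both RASSF9-/- arrays. Smurf1, a ubiquitin ligase of this pathway, had 2417, 2326 and 2359, a narrow spread. Strap, an adaptor that cooperates with Smad7, was at 4468, 4678 and 5683.

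Among genes of latency and activation, 10 were tested, of which 2 were higher on both arrays and 6 lower. Over all genes tested, 33.6% were higher on both and 32.7% lower. Integrins with the alpha v chain free TGF-beta from its latent complex. Itgb8, a beta chain of that kind, had 1192 in WT, 534 on array 1 and 184 on array 2, with array 2 6.47-fold under WT. Its log2 fold change was -1.93 (SE 0.69, limma adjusted p = 0.783). Itgb6, the beta chain known from wounded epidermis, was not lower, with 1262, 2029 and 1298. Itgav, the alpha v chain itself, had 7694, 12155 and 9655. Ltbp4, a latent TGF-beta binding protein, had 197, 113 and 102.

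Of the 9 other receptors tested, 7 were lower on both RASSF9-/- arrays and 0 higher, beside 32.7% lower over all genes. Their median log2 fold change was -0.72, beside -0.01 over all genes tested, and 0 were at least 2-fold lower on both arrays. Eng had 260 in WT, 86.8 on array 1 and 218 on array 2, so that only array 1 was far from WT. Acvr2b had 172, 186 and 36.3, in the background on array 2. Bmpr2, a type II receptor for BMPs, had 4499 in WT, 3600 on array 1 and 2700 on array 2. Acvr1b, the type I receptor for activin, had 1770, 1421 and 735, so that only array 2 was far from WT. Bmpr1b had 152, 102 and 82.8, close to background, and Acvrl1 had 153, 116 and 63.4, in the background on array 2. Acvr2a, a type II receptor for activin, had 702, 613 and 796, with WT in between. With the mean of each gene's probe sets, 4 of the 5 receptors then tested were lower on both.

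**Figure D4:**
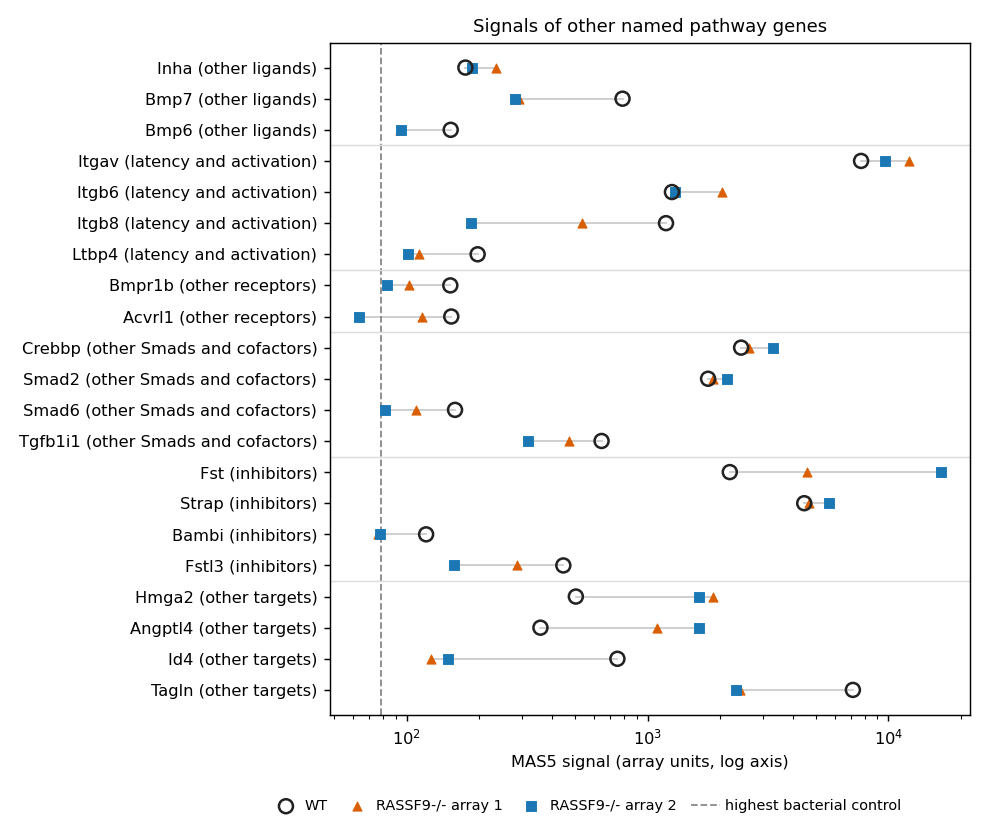
MAS5 signal (array units, log axis) of the other pathway genes chosen by rule from each role list, with an open circle for WT, a triangle for RASSF9-/- array 1, a square for RASSF9-/- array 2 and broken lines marking 78.4, the background limit. Fst, Hmga2 and Angptl4 have both RASSF9-/- markers to the right of WT, and Bmp7, Itgb8, Id4 and Tagln have them to the left.

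Other ligands were mostly on either side of WT, with 1 of 7 higher on both arrays (33.6% of all genes were) and 2 lower (32.7%). Bmp7 had 787 in WT, 293 on array 1 and 282 on array 2. The RASSF9-/- arrays were close to each other and both were well under WT, a log2 fold change of -1.45 (SE 0.47, limma adjusted p = 0.689). Bmp6 was dim at 152, 93.6 and 94.4. Inha, the inhibin alpha chain, had 175, 234 and 187.

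For the other Smads and cofactors, 11 were tested, 3 of them higher on both arrays (33.6% of all genes were) and 2 lower (32.7%). The median log2 fold change was -0.08. Smad2, the partner of Smad3, had 1782 in WT, 1864 on array 1 and 2137 on array 2, and its second probe set was lower on both. Smad4, shared by all branches, was at 3856, 4471 and 3692. Smad6, an inhibitory Smad of the BMP branch, had 159, 110 and 81.2. Crebbp, a coactivator, had 2445, 2624 and 3305, and Tgfb1i1, a focal adhesion protein induced by TGF-beta, had 644, 472 and 319.

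Of 25 other targets tested, 8 were higher on both arrays, 12 were lower and 5 lay on either side of WT, and 6 had an unadjusted p under 0.05. Over all genes tested these shares were 33.6% higher, 32.7% lower and 5.55% under that p. The Id genes did not share a direction. Id4 had 749 in WT, 126 on array 1 and 149 on array 2, and both its probe sets above background throughout were lower. Its log2 fold change was -2.45 (SE 0.53, limma adjusted p = 0.346), and -1.60 with the mean of its probe sets. Id3 was not lower, with 1346, 1894 and 1621. Id2 lay on either side of WT, with 885, 321 and 2457.

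Tagln and Acta2, which encode parts of the contractile cytoskeleton and which TGF-beta induces in many cells, both had lower signals on both arrays. Tagln, an actin-binding protein, had 7115 in WT, 2424 on array 1 and 2323 on array 2, and the 2 RASSF9-/- arrays were close to each other. Its log2 fold change was -1.58 (SE 0.33, limma adjusted p = 0.346). Acta2, smooth muscle actin, had 16866, 4892 and 6743. Both genes are also among the 6 smooth muscle and pericyte markers. Of these, 4 were lower on both arrays (32.7% of all genes were) and 2 were higher (33.6%). The other 2 lower ones were Cspg4, with 137, 119 and 85.3, and Rgs5, with 82.5, 81.1 and 18.9. Rgs5 was level with WT on array 1 and in the background on array 2. The 2 higher ones were Des and Myh11. Des had 39 in WT and 71.3 on array 2, both in the background, and 107.7 on array 1. Myh11 was under background on every array. The summed signal of the 6 was 24251 in WT, 7646 on array 1 and 9265 on array 2, most of it from Acta2 and Tagln themselves. The part of such cells in the lower Tagln and Acta2 signals was not tested.

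In the other direction, Hmga2, a chromatin protein that TGF-beta induces, had 503 in WT, 1863 on array 1 and 1639 on array 2. All 3 of its probe sets above background were higher on both arrays, and the log2 fold change was 1.80 (SE 0.38, limma adjusted p = 0.346). Angptl4, a secreted inhibitor of lipoprotein lipase, had 359, 1090 and 1639. Mmp9, a matrix protease, had 2807, 23189 and 4508, so the difference lay mainly on array 1. Targets on the list thus lay both above and below WT. The list was not divided into genes that the pathway raises and genes that it lowers. Whether the activity of the pathway differed was not tested.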

How the data were processed

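RNA of 1 WT and 2 RASSF9-/- keratinocyte samples had been hybridized to 1 array each. The authors deposited MAS5 signals, linear intensities scaled per array to a trimmed mean of 500 (with 2% trimmed at either end, as the values themselves show). The MAS5 version is not given in the sources used here, and detection calls were not used here. Here log2 values were taken without further scaling or pseudocount. For each gene the brightest probe set with 1 symbol was kept at or above the 50th percentile of mean log2 signal, a signal of 82.7. The 2 genotypes were contrasted in limma 3.58.1 (R 4.3.3; lmFit, then eBayes with the trend option), using two-sided tests and Benjamini-Hochberg adjustment over 11089 genes. Within a gene, only the difference between the RASSF9-/- arrays informs the spread (1 residual degree of freedom). The eBayes step draws that spread toward a trend over all genes tested, which carries more weight (5.31 prior degrees of freedom). WT is assumed to vary as the RASSF9-/- arrays do, and precision is limited by the number of arrays. That pair differs in file date, which was not a term because no residual degree of freedom would remain.

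Members and lists were chosen with earlier results of these data known. The named genes are all 10 members, Rassf9, the 5 genes nearest to Id1, the member with the largest smaller change, and up to 2 genes higher and 2 lower on both arrays per role list by the smaller of the 2 changes. Id2, Id3, Acta2, Mmp9, Mmp13, Pmepa1, Smurf1, Smad4, Bmpr2, Acvr1b, Acvr2a, Dpt, Cspg4, Rgs5, Des and Myh11 are outside this rule and were named after their values were seen. The same holds for Eng, Acvr2b, Lum, Pdgfra, Trp63 and Csf1r. The background limit was set after the values were seen. Of the 97 genes on the role lists, 7 were not analysed here and 13 were left untested by the signal filter. Markers of leukocytes summed to 1475 for WT, 1653 for array 1 and 2334 for array 2, and those of endothelium to 367, 471 and 474. Of these, 3 of 8 leukocyte and 3 of 7 endothelium markers were under background on every array. The higher leukocyte sum on array 2 lay in Csf1r, with 784 in WT, 792 on array 1 and 1686 on array 2. Upstream sequences come from RefSeq. The procedure was tested on simulated data. There WT was given the spread of the RASSF9-/- arrays, so that test does not bear on the spread between WT cultures. Alternatives were other scalings, filters, a pseudocount of 32, other uses of probe sets, no intensity trend, raised background values, the methods' t-test, other fold thresholds and leaving out each RASSF9-/- array. The counts of members past 2-fold on single arrays, and of other pathway genes and receptors by direction under each setting, were added after seeing the data.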

Additional observations from a re-analysis of the deposited data

How the results depend on the processing

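No member was called under any limma setting, and the lowest adjusted p of a member was 0.554. The count of calls over all genes was 9. It was 5 with a filter at the 75th percentile and 5 with a pseudocount of 32. It was 0 with quantile normalization, without the intensity trend, with signals raised to the bacterial controls and with the methods' t-test after adjustment, and that t-test without adjustment gave 489 over all genes, 6 among the other pathway genes and 0 among the members. The 1 member at least 2-fold higher on both arrays (Tgfb2) became 0 with the 75th percentile filter, which tested 7 members, with the pseudocount, with the mean of probe sets and at a threshold of 3-fold, and 2 at 1.5-fold. The 2 members lower became 1 with the 75th percentile filter, 0 at 3-fold, and 3 at 1.5-fold and with each array divided by its median. Leaving out each RASSF9-/- array in turn gave 1 to 2 members at least 2-fold higher and 2 to 3 lower. These counts use only the array that is left, so they cannot fall under the counts for both arrays. With the mean of probe sets the log2 fold change turned to -0.51 for Inhba, -0.013 for Tgfbr2, -0.14 for Smad3 and -0.48 for Smad2. Both Smad2 probe sets were above background on every array and disagreed in direction, and each of the other 3 genes has at least 1 probe set with arrays in the background. On single arrays it ran from -0.32 to 0.43 for Tgfbr1, from -0.012 to 0.43 for Smad3 and from -0.13 to 0.25 for Smad7. Tgfb1, Tgfb2, Tgfb3, Id1 and Tgfbi kept their direction under every setting that tested them. The 75th percentile filter left out Tgfb2, Tgfb3 and Tgfbi. Their direction on single arrays adds nothing, because they were already described as higher or lower on both. The filters, testing each probe set, leaving out the trend and the t-test cannot alter these fold changes. Only the other scalings, the pseudocount, raised background values and the mean of probe sets could, and not each of them for every gene. No paired analysis was possible because there is 1 WT array. The design cannot give the spread between WT cultures, and signals near 78.4 give bounds only.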

Other observations

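A few genes of the pathway lay far from WT on both RASSF9-/- arrays but in opposite directions, so that their mean hid the difference. They were named after their values were seen. Mmp13, which encodes a collagenase, had 1963 in WT, 6018 on array 1 and 702 on array 2. Id2, an inhibitor of the same class as Id1, had 885, 321 and 2457. The log2 difference from WT was 1.62 and -1.48 for Mmp13 and -1.46 and 1.47 for Id2, on arrays 1 and 2. No test separates the 2 RASSF9-/- arrays from each other, since each is 1 sample.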
